A study of Mus musculus with 6 samples.

Results

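The lipid-associated macrophage program was followed through 10 genes, led by *Gpnmb* and *Trem2*, in livers of mice that lost *Spns1* after birth. They were selected on the gene names of the deposited count table, where all 10 were found among 54532 listed genes. The names were chosen with the counts of g*Spns1*-cKO and control livers already known, so the differences of these 10 genes between the genotypes are given as a description, without p-values. Whole liver of 3 g*Spns1*-cKO mice and of 3 control mice gave 1 poly-A RNA library each. The g*Spns1*-cKO mice were homozygous for a floxed *Spns1* allele (*Spns1* fl/fl) and carried the tamoxifen-dependent Rosa26Cre-ERT2, with tamoxifen injected on several days of the suckling period. Because this Cre is driven from the ubiquitous Rosa26 locus, the gene was targeted in the whole body and not in 1 liver cell type. The labels call the control mice wild type, whereas the methods name *Spns1* fl/fl littermates as controls; whether these received tamoxifen, and the age and sex of the sequenced mice, are not given in the sources used here.

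SPNS1 is a transporter that carries lysolipids, the breakdown products of phospholipids, out of lysosomes. Macrophages that take up and store lipid, in fatty tissue, plaques, injured nerve and diseased liver, switch on a common set of genes known as the lipid-associated or TREM2 macrophage program. TREM2 is a surface receptor that binds lipids and signals through its adaptor TYROBP (DAP12), and GPNMB is a glycoprotein of lysosomes and the cell surface whose level rises in macrophages with overloaded lysosomes. The other members handle fatty acids (*Lpl*, *Fabp5*), act outside the cell (*Spp1*, *Lgals3*) or sit in macrophage membranes (*Cd68*, *Cd9*, *Ms4a7*).

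The 6 libraries held between 30350002 and 35295611 counts on genes. For all comparisons the counts were scaled by the TMM method of edgeR, with factors of 0.834 to 0.873 in control and 1.16 to 1.18 in g*Spns1*-cKO libraries, and are given as CPM, that is per 1e6 scaled counts. Of 15449 genes with enough counts to be tested, 21.3% passed an adjusted p of 0.05 as higher and 20.5% as lower in g*Spns1*-cKO livers. All g*Spns1*-cKO libraries were above all control libraries in 27.1% of the tested genes, and below them in 26.9%. The targeted gene *Spns1* had 22.1 ± 7.40 CPM with the deletion and 40.4 ± 8.98 CPM in control livers (mean and SD of 3 mice), with no overlap. The separation depended on the TMM scaling. Unscaled counts overlapped, at 642, 1175 and 698 with the deletion and 1008, 1562 and 875 in control livers. Counts per gene do not show the deleted part by itself.

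All 10 members passed the filter on low counts. In 9 of them every g*Spns1*-cKO library was above every control library, and these 9 are among the genes counted above as higher. *Fabp5* is counted neither as higher nor as lower. The median log2 ratio of g*Spns1*-cKO to control over the 10 genes, as fitted by edgeR, was 2.67, beside 0.01 over all tested genes. These counts restate how the genes were chosen, and nothing is read from them. In whole liver, more cells of a type and more RNA of a gene per cell cannot be told apart.

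*Gpnmb* (ENSMUSG00000029816) lies on chromosome 6 (49036546 to 49070929, plus strand, GRCm38 like all gene positions given). It was nearly silent in control livers, with 9, 36 and 7 counts in replicates 1, 2 and 3. The g*Spns1*-cKO livers held 2309, 2682 and 3029 counts. On the CPM scale these were 0.320, 1.17 and 0.277 in control and 64.2, 69.9 and 77.1 in g*Spns1*-cKO livers. The groups were far apart, and the lowest g*Spns1*-cKO library was 54.9 times the highest control library. The log2 ratio was 6.84 (standard error 0.42). The spread lay in the control livers, where replicate 2 was the highest of the 3, while the g*Spns1*-cKO livers differed by at most 1.20 times. Without control replicate 2 the log2 ratio was 7.85, and without control replicate 3 it was 6.52.

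The receptor *Trem2* (chromosome 17, 48346401 to 48354147, plus strand) had 1.28, 1.72 and 1.54 CPM in control livers. It had 15.9, 13.9 and 13.4 CPM in g*Spns1*-cKO livers, a log2 ratio of 3.24 (standard error 0.18). It was among the least variable members, and the g*Spns1*-cKO livers were at least 7.80 times the highest control liver. Its signalling adaptor *Tyrobp* (chromosome 7, 30413760 to 30417585, plus strand), which other myeloid receptors also use, had 5.66, 7.31 and 7.43 CPM in control livers. In g*Spns1*-cKO livers it had 30.6, 26.8 and 21.9 CPM, a log2 ratio of 1.96 (standard error 0.16). Receptor and adaptor therefore differed in size of change. Per length, in TPM (transcripts per 1e6), *Trem2* stood at 3.05%, 3.18% and 2.80% of *Tyrobp* in the control livers and at 6.99%, 7.02% and 8.29% in the g*Spns1*-cKO livers. In TPM, *Trem2* remained far below its adaptor in all 6 libraries, and the 2 ranges of this ratio did not overlap. The ratio rests on merged exon lengths of 4946 bases for *Trem2* and 667 for *Tyrobp*, so its size can be understated in both genotypes.

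*Lpl* encodes lipoprotein lipase, which frees fatty acids from triglyceride-rich lipoproteins, and lies on chromosome 8 (68880491 to 68907448, plus strand). The control livers were close together, at 12.9, 13.1 and 14.1 CPM. The g*Spns1*-cKO livers had 234, 368 and 283 CPM. After *Gpnmb* this was the member with the largest log2 ratio, 4.46 (standard error 0.18), and it rested on 8425 to 14101 counts per g*Spns1*-cKO library. *Fabp5* (chromosome 3, 10012548 to 10016607, plus strand), a cytosolic carrier of fatty acids, went against the other members. It had 183, 94.1 and 47.0 CPM in control livers and 83.5, 45.2 and 72.5 CPM in g*Spns1*-cKO livers. The groups overlapped, and the control livers alone differed by 3.89 times. Its log2 ratio of -0.69 had a standard error of 0.57, and became -0.09 without control replicate 1 and -1.05 without control replicate 3.

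*Spp1* encodes osteopontin, a secreted phosphoprotein that binds integrins and CD44, and lies on chromosome 5 (104435118 to 104441050, plus strand). It had 37.6, 40.0 and 56.2 CPM in control livers. In g*Spns1*-cKO livers it had 191, 248 and 147 CPM, a log2 ratio of 2.13 (standard error 0.22). *Lgals3* encodes galectin-3, also known as Mac-2, a lectin used as a macrophage stain, and lies on chromosome 14 (47367751 to 47386160, plus strand). It had 3.66, 4.22 and 4.27 CPM in control livers. It had 41.2, 30.4 and 39.8 CPM in g*Spns1*-cKO livers, a log2 ratio of 3.19 (standard error 0.15). The control levels of *Lgals3* were tight, and its g*Spns1*-cKO libraries were at least 7.12 times the highest of them, whereas for *Spp1* this ratio was 2.61.

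*Cd68* (chromosome 11, 69664213 to 69666153, minus strand) encodes a heavily glycosylated protein of macrophage endosomes and lysosomes. It had 5.41, 5.55 and 8.10 CPM in control and 29.7, 24.7 and 29.5 CPM in g*Spns1*-cKO livers, a log2 ratio of 2.14 (standard error 0.17). The tetraspanin *Cd9* (chromosome 6, 125460266 to 125494791, minus strand), a membrane organizer made by many cell types, had 16.0, 15.4 and 12.1 CPM in control livers. It had 58.3, 31.8 and 46.0 CPM in g*Spns1*-cKO livers. *Cd9* was the smallest increase of the 9, with a log2 ratio of 1.64 (standard error 0.22) and a lowest g*Spns1*-cKO library 1.99 times the highest control. *Ms4a7*, of the MS4A family of membrane-spanning proteins, lies on chromosome 19 (11321039 to 11336146, minus strand) and was the rarest member. The control livers held 20, 7 and 5 counts and the g*Spns1*-cKO livers 157, 129 and 174. Its log2 ratio was 3.40 (standard error 0.42). This ratio was 4.21 without control replicate 1, the highest control library, and 3.11 without control replicate 3.

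**Figure D1:**
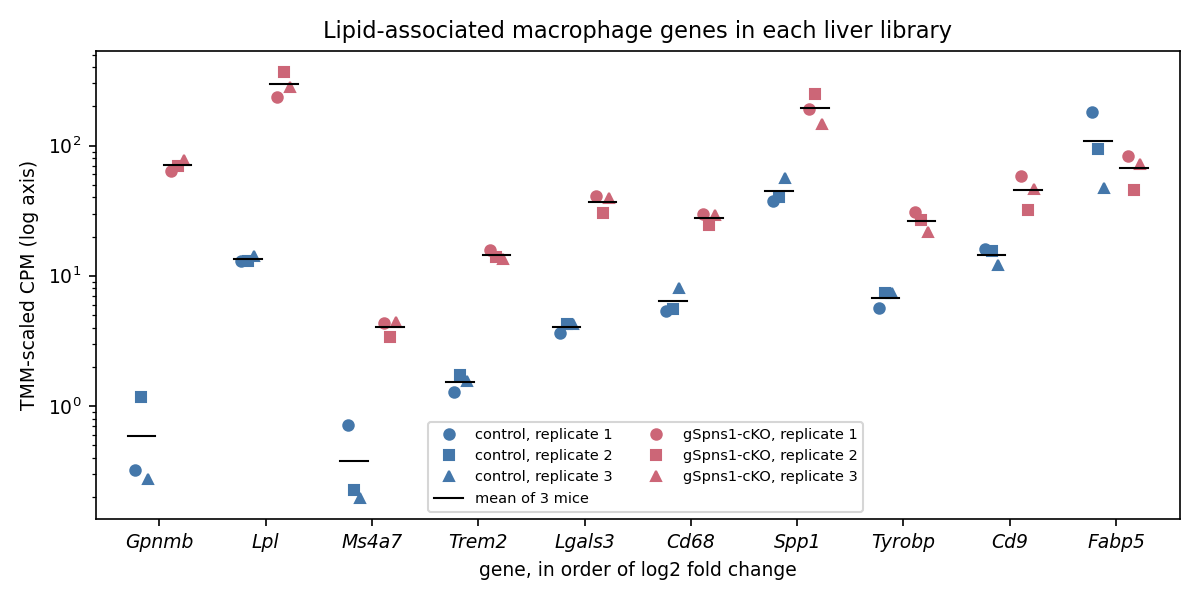
TMM-scaled CPM (log axis) of the 10 members in each of the 6 libraries, ordered by log2 ratio, with a line at the mean of the 3 mice of a genotype. *Gpnmb* moved from 0.589 to 70.4 CPM on average, and the 2 genotypes overlap for *Fabp5* alone among these genes.

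The members did not share 1 order of the g*Spns1*-cKO livers. Replicate 2 had the highest *Lpl* and *Spp1* and the lowest *Cd9*, *Lgals3*, *Fabp5*, *Cd68* and *Ms4a7*. The highest g*Spns1*-cKO library exceeded the lowest by between 1.18 times (*Trem2*) and 1.85 times (*Fabp5*), smaller than the gap to the control livers for each of the 9 members. Among the control livers this ratio ran from 1.09 for *Lpl* to 4.23 for *Gpnmb*.

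The stretch of DNA just before the start of transcription was examined for the 7 members listed in RefSeq's promoter table (GRCm38.p6), which holds 9 windows for them, each from 250 bases before to 50 bases after a start. *Tyrobp*, *Fabp5* and *Lpl* are not in that table. The 160 bases before the start are shown for the receptor gene *Trem2* and for *Gpnmb*, the members that name the program, and for *Spp1* (first of its windows) and *Cd68*, which held a searched motif there. Sequences run 5′ to 3′ on the gene's strand, and capitals mark the motif, GAGGAAGT (the ETS site of PU.1, a macrophage factor) in *Spp1* and TGACTCA (AP-1, on the opposite strand) in *Cd68*. The positions are chr6:49036358-49036517 (plus strand) for *Gpnmb*, chr17:48346241-48346400 (plus strand) for *Trem2*, chr5:104434951-104435110 (plus strand) for *Spp1* and chr11:69666171-69666330 (minus strand) for *Cd68*.
Gpnmb: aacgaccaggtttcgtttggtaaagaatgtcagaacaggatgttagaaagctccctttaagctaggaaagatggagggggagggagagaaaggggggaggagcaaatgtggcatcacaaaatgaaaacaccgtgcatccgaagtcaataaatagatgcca
Trem2: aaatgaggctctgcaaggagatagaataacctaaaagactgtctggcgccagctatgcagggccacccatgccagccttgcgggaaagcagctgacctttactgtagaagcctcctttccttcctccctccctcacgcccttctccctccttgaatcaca
Spp1: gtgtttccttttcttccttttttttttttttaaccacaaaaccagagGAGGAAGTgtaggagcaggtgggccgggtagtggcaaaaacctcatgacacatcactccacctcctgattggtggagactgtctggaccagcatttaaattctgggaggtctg
Cd68: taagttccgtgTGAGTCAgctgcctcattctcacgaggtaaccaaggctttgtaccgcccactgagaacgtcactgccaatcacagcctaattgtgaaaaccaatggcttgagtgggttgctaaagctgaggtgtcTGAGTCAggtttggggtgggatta

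On both strands of the 9 windows, GAGGAAGT was found in *Spp1*, TGACTCA in *Cd68* and *Gpnmb* (in the latter just after the start) and TCATGTG, the M-box of the MiT/TFE factors, in *Ms4a7*. The E-box CACGTG, which those factors also bind, was in none of the 9. Of all 32851 promoter windows in the table, 3.20% held GAGGAAGT, 5.20% TGACTCA, 3.77% TCATGTG and 7.15% CACGTG. None of these motifs contains another, and a match describes letters, not binding.

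Levels were compared between members only per length, in TPM. In control livers the order was *Fabp5* (57.3 ± 36.6), *Spp1* (51.0 ± 10.6), *Tyrobp* (19.2 ± 2.82), *Cd9* (13.4 ± 2.13), *Cd68* (9.52 ± 2.08), *Lgals3* (4.12 ± 0.349), *Lpl* (2.41 ± 0.0772), *Trem2* (0.579 ± 0.0915), *Gpnmb* (0.173 ± 0.151) and *Ms4a7* (0.161 ± 0.122 TPM, SD, n = 3 mice). Neighbours whose ranges overlapped were *Fabp5* with *Spp1*, *Cd9* with *Cd68*, and *Gpnmb* with *Ms4a7*. In g*Spns1*-cKO livers *Spp1* led at 330 ± 84.0 TPM, followed by *Tyrobp* (111 ± 18.3), *Lpl* (78.5 ± 17.6), *Cd68* (62.1 ± 6.61), *Cd9* (62.0 ± 18.3), *Lgals3* (55.8 ± 9.06) and *Fabp5* (52.5 ± 15.6). From *Tyrobp* down to *Fabp5* each gene's range overlapped with the next. *Gpnmb* followed at 30.2 ± 2.81, then *Trem2* at 8.13 ± 0.734 and *Ms4a7* at 2.54 ± 0.385 TPM, each apart from its neighbours. *Gpnmb* thus stood below *Trem2* in the control livers and above it in the g*Spns1*-cKO livers. The lengths are merged exons as deposited, 6514 bases for *Gpnmb*, 10478 for *Lpl*, 4946 for *Trem2* and 3567 for *Fabp5* against 667 for *Tyrobp*. The level and rank of a gene with long alternative ends or long merged exons can therefore be understated.

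**Figure D2:**
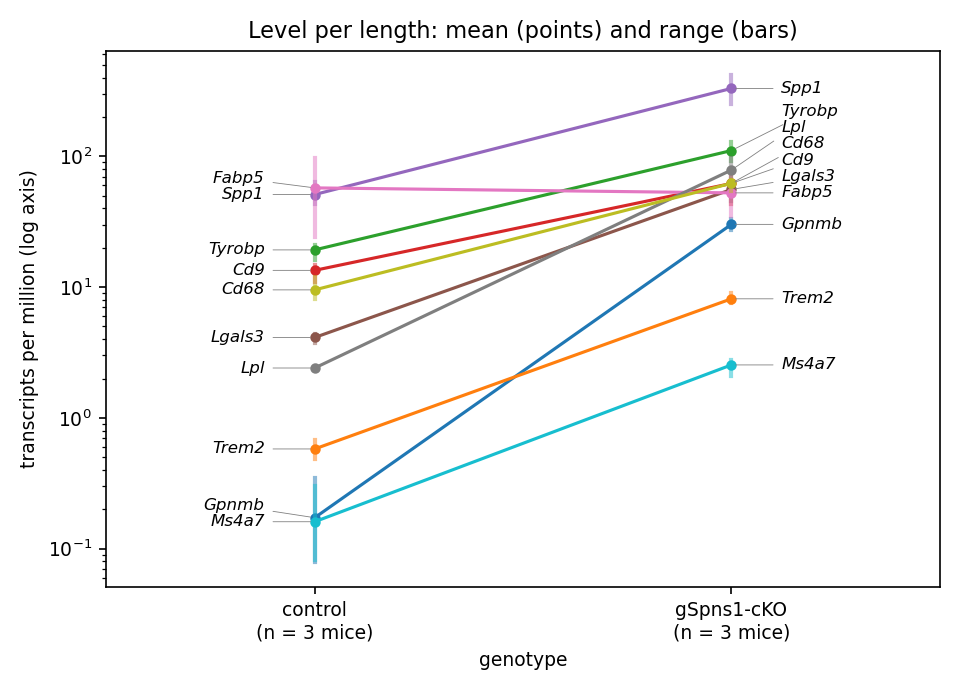
Mean TPM (points, log axis) and range over the 3 mice (bars) of the 10 members in control and g*Spns1*-cKO livers. *Gpnmb* rose from 0.173 to 30.2 TPM and crossed the line of *Trem2*. TPM are not TMM-scaled, so differences between the genotypes are better read from CPM, where *Gpnmb* went from 0.589 to 70.4 and *Fabp5* from 107.9 to 67.1 on average.

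General markers of macrophages rose as well, but the marker lists, like the others here, were chosen with earlier results of these data known. The list of 14 macrophage and pan-leukocyte markers summed to between 170.0 and 266.6 CPM in control and between 597 and 804 CPM in g*Spns1*-cKO livers, with no marker at 0 in any library. Of its 14 genes, all tested, 13 passed the adjusted p of 0.05 (edgeR) as higher and none as lower, beside 21.3% and 20.5% of all tested genes. Among the 13 was *Lyz2*, the macrophage lysozyme, which has a near-identical copy, *Lyz1*, that may take part of its reads. *Lyz2* had 45.4 ± 8.59 CPM in control and 228 ± 56.1 CPM in g*Spns1*-cKO livers, a log2 ratio of 2.33 (standard error 0.20, edgeR adjusted p = 5.13e-05). The perforin-like gene *Mpeg1*, with 66.4 ± 31.0 and 145 ± 30.4 CPM, did not pass (edgeR adjusted p = 0.0524), but did under 7 of the 15 alternatives, among them DESeq2, limma-voom and leaving out control replicate 1 or 3. Each member was therefore also expressed per 100 counts of the summed marker list, a ratio within a library that no scaling changes.

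On that measure the members fell into different sizes. *Gpnmb* had 0.188, 0.531 and 0.104 counts per 100 marker counts in control and 7.99, 11.6 and 12.9 in g*Spns1*-cKO livers, so that the means stood in a ratio of 39.5. Leaving out control replicate 2 made this ratio 74.2, and leaving out control replicate 3 made it 30.1. *Lpl* had 7.60, 5.95 and 5.28 against 29.1, 61.1 and 47.4, a ratio of 7.31. *Trem2* (0.753, 0.782 and 0.578 against 1.98, 2.32 and 2.25), *Ms4a7* and *Lgals3* had ratios of 3.10, 3.09 and 2.97. These 5 members kept separate groups after division by the markers, but for *Ms4a7* the lowest g*Spns1*-cKO library was only 1.30 times the highest control. The control values of *Ms4a7* were 0.419, 0.103 and 0.0741, and its ratio was 6.93 without control replicate 1 and 2.355 without control replicate 3. *Spp1*, *Cd68* and *Tyrobp* had ratios of 1.46, 1.46 and 1.26, and their groups still did not overlap, but by little: the lowest g*Spns1*-cKO library was 1.07, 1.16 and 1.10 times the highest control. The log2 ratios of the 14 markers themselves ran from 0.75 to 2.50, and those of *Spp1*, *Cd68* and *Tyrobp* lay within that span. These small ratios therefore depend on which markers are summed. *Cd9* had a ratio of 0.966 with overlapping groups, and *Fabp5* one of 0.179, with every g*Spns1*-cKO library below every control library. For *Fabp5* the control values were 108, 42.8 and 17.6, and the ratio was 0.332 without control replicate 1. In CPM the *Fabp5* groups overlapped, and they separated only after division by the markers. The marker sums were 4779 to 6777 counts in control and 23099 to 28914 counts in g*Spns1*-cKO livers. Which cells made the *Fabp5* RNA was not tested. Against the same sum without its genes of highest CPM, *Lyz2* and *Mpeg1*, the ratios were 44.8 for *Gpnmb*, 8.14 for *Lpl*, 3.47 for *Trem2* and 1.11 for *Cd9*. Against 10 markers of resident Kupffer cells they were 53.4, 10.1, 4.26 and 1.33, so that the direction for *Cd9* depends on the marker list. *Spp1*, *Cd68* and *Tyrobp* had ratios of 1.61, 1.61 and 1.415 without *Lyz2* and *Mpeg1* in the sum. Against the Kupffer cell markers these were 2.02, 2.01 and 1.74.

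**Figure D3:**
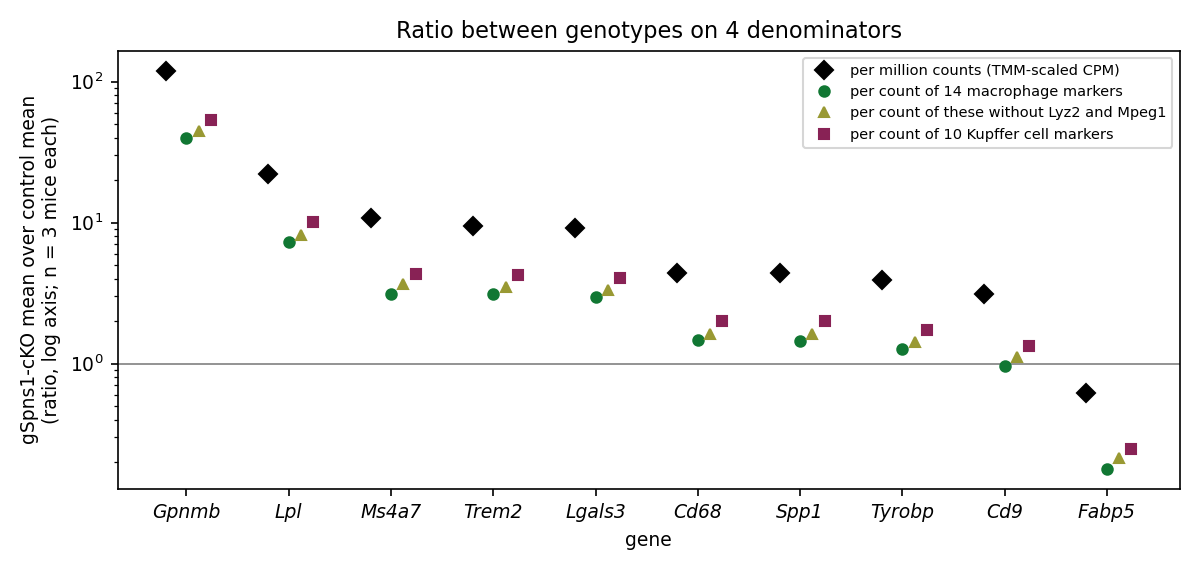
Mean of the g*Spns1*-cKO livers over the mean of the control livers (log axis, 3 mice each) for the 10 members, as CPM and per count of 3 macrophage marker sums. *Gpnmb* stays at 39.5 or above on each denominator, and *Cd9* lies near 1 once divided by marker counts.

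Markers of other cell types were counted too, and the part of these cells in the members' differences was not tested. Over all tested genes, 21.3% passed as higher and 20.5% as lower. Of 10 markers of resident Kupffer cells, 8 were higher and none lower (summed CPM 289 to 429 in control and 688 to 947 in g*Spns1*-cKO livers, none at 0), and *Cd5l*, secreted by these cells, had a log2 ratio of 1.79 (edgeR adjusted p = 0.00277). The iron exporter gene *Slc40a1*, also on that list, had 134 ± 14.9 and 152 ± 13.1 CPM (edgeR adjusted p = 0.256). Of the 9 monocyte markers 8 were tested and 6 were higher, *Plac8* among them (log2 ratio 0.70, edgeR adjusted p = 0.0146), with *S100a4* and *Vcan* at 0 in at least 1 library. Their sum, 1093 to 1602 CPM in control and 1081 to 1102 CPM in g*Spns1*-cKO livers, consisted mostly of fibronectin, *Fn1* (log2 ratio -0.38, edgeR adjusted p = 0.0948), which hepatocytes also make. Osteopontin and CD9 are made by bile duct cells too. Of 9 cholangiocyte markers 8 were higher, with sums of 22.4 to 22.7 CPM in control and 44.2 to 58.4 CPM in g*Spns1*-cKO livers and *Cldn4* at 0 in at least 1 library. The progenitor and duct factor *Sox9* had a log2 ratio of 1.64 (edgeR adjusted p = 0.000615).

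Of 10 stellate cell markers 7 were higher, among them *Dcn*, a matrix proteoglycan (log2 ratio 1.57, edgeR adjusted p = 3.83e-05), and *Reln* (0.72, adjusted p = 0.000731); the sums were 204 to 232 and 538 to 590 CPM, with none at 0. Of 9 endothelial markers 6 were higher (206 to 226 and 282 to 341 CPM, none at 0); the scavenger receptor gene *Stab2* had a log2 ratio of 1.19 (edgeR adjusted p = 4.51e-05) and *Stab1* 0.15 (adjusted p = 0.337). Neutrophil markers were rare, with sums of 3.81 to 6.11 and 10.3 to 16.7 CPM. Of 10, 5 could be tested and 4 were higher, *Csf3r* (1.97, edgeR adjusted p = 0.000311) and *S100a9* (1.37, adjusted p = 0.00600) among them, and *Camp*, *Ltf*, *Ly6g*, *Mmp8* and *Ngp* were at 0 in at least 1 library. Of 7 dendritic cell markers 5 were tested and 2 higher (7.70 to 9.75 and 11.6 to 12.8 CPM, *Cd209a* at 0 in at least 1 library), including *Clec9a* (1.42, edgeR adjusted p = 0.00139) but not *Zbtb46* (0.09, adjusted p = 0.759). Of 10 T, NK and B cell markers 2 were higher and 1 lower (5.41 to 6.79 and 8.17 to 8.81 CPM, *Cd8a* at 0 in at least 1 library), with *Nkg7* at 1.76 (edgeR adjusted p = 0.0137) and *Cd4* at -1.26 (adjusted p = 0.0212). Neither share was larger than that over all tested genes. Osteoclast-lineage markers were added because GPNMB is also known as osteoactivin. Of 7, 4 were tested and 2 higher (135 to 161 and 133 to 149 CPM), and *Calcr*, *Dcstamp* and *Oscar* were at 0 in at least 1 library; *Atp6v0d2*, a proton pump subunit, had a log2 ratio of 2.79 (edgeR adjusted p = 0.000286), and *Acp5* one of -0.22 (adjusted p = 0.141). Hepatocyte markers defined the tissue, at 111500 to 126400 CPM in control and 67690 to 79690 CPM in g*Spns1*-cKO livers. Of these 10 none was higher and 6 were lower, with *Alb* at -0.73 and *Apoa1* at -0.76 (edgeR adjusted p = 0.0101 and 0.00997); both calls were lost with library size as the only scaling (adjusted p = 0.21 and 0.19).

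Other genes of the lipid-associated macrophage program were described with a list of 40 further genes, of which 38 were tested. The list was written with earlier results of these data known, so its counts do not test whether the program moved. In all, 29 passed as higher and 3 as lower (edgeR, adjusted over all genes), where 21.3% and 20.5% of all genes were, and the median log2 ratio was 1.20. *Cd63*, a tetraspanin of lysosomes and exosomes, had 150, 214 and 128 counts in control and 8141, 7895 and 9832 counts in g*Spns1*-cKO livers. Its log2 ratio was 5.29 (standard error 0.17, edgeR adjusted p = 6.40e-08), and reads of a processed pseudogene, *Cd63-ps*, may share its signal. The macrophage elastase *Mmp12* rose from 0.394 ± 0.170 to 18.1 ± 9.78 CPM (SD, n = 3; log2 ratio 5.48, standard error 0.55, edgeR adjusted p = 0.000531). *Clec7a*, the β-glucan receptor dectin-1, and the integrin *Itgax* had log2 ratios of 3.56 and 3.29 (respective adjusted p of 2.98e-05 and 2.09e-05 by edgeR, standard errors 0.26 and 0.27). The 3 lower genes, named after their values were seen, were the lipid droplet coat gene *Plin2* (log2 ratio -1.11, edgeR adjusted p = 0.00056), the growth factor gene *Igf1* (-0.79) and the cholesteryl ester hydrolase gene *Nceh1* (-0.29). Hepatocytes also express *Plin2* and *Igf1*. *Cst7* and *Olr1* had too few counts to be tested.

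The TREM2-TYROBP signalling chain and the transcription factors of macrophages and lysosomes formed a list of 42 genes with 37 tested. Of these 18 were higher and 7 lower (median log2 ratio 0.75), beside 21.3% and 20.5% of all tested genes, so the count of lower genes was near the share over all genes. The surface receptors *Cd300lb*, which pairs with TYROBP, and *Cd300lf* had log2 ratios of 2.40 and 2.21 (respective adjusted p of 0.00195 and 0.000124 by edgeR, standard errors 0.44 and 0.25). *Plcg2*, a phospholipase C downstream of TREM2, rose from 0.992 ± 0.467 to 3.91 ± 0.843 CPM (SD, n = 3; edgeR adjusted p = 0.00127). The sister adaptor of TYROBP, *Hcst* (DAP10), had 0.672 ± 0.342 and 1.12 ± 0.237 CPM (log2 ratio 0.75, standard error 0.42, edgeR adjusted p = 0.171). The 4 MiT/TFE factors, which control lysosomal genes and, in the case of MITF, *Gpnmb*, differed among themselves. *Tfec*, the myeloid member, rose from 1.05 ± 0.140 to 3.53 ± 1.24 CPM (log2 ratio 1.74, edgeR adjusted p = 0.00176) and *Mitf* from 2.28 ± 0.339 to 4.12 ± 0.571 CPM (0.85, adjusted p = 0.0121). The call of *Mitf* was lost without g*Spns1*-cKO replicate 3 (adjusted p = 0.0545). *Tfeb* fell from 13.6 ± 2.55 to 9.13 ± 0.488 CPM (log2 ratio -0.57, edgeR adjusted p = 0.0136), a call that was lost with library size as the only scaling (adjusted p = 0.52) and without control replicate 2 (adjusted p = 0.0521). *Tfe3* had 27.3 ± 2.82 and 27.4 ± 2.05 CPM (log2 ratio 0.003, standard error 0.12, edgeR adjusted p = 0.987).

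For the partners and receptors of osteopontin, galectin-3 and GPNMB, 22 of 24 genes were tested. Of these 8 were higher and 2 lower, beside 21.3% and 20.5% of all tested genes, and the median log2 ratio was 0.29. This list also holds *Mmp12*, described above. The matrix metalloproteinase *Mmp7* had a larger log2 ratio, with a rise from 0.110 ± 0.134 to 6.54 ± 5.83 CPM, a log2 ratio of 5.75 with a standard error of 1.09 (edgeR adjusted p = 0.00952). Its g*Spns1*-cKO values were 3.20, 13.3 and 3.15 CPM, and the log2 ratio was 4.72 without g*Spns1*-cKO replicate 2 and 7.31 without control replicate 2. The matrix protein gene *Thbs1* and the integrin *Itga8* had log2 ratios of 2.67 and 2.36 (respective adjusted p of 0.000112 and 6.88e-05 by edgeR, standard errors 0.30 and 0.23). *Itga8* shares exon bases with *E030013I19Rik* on the opposite strand. The lower genes, named after their values were seen, were *Sdc4*, a heparan sulfate proteoglycan (log2 ratio -0.76), and *Vtn*, the plasma protein vitronectin (-1.20).

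The partners of lipoprotein lipase and the other fatty acid-binding proteins were mixed. Of 28 genes 24 were tested, 5 were higher, 12 lower and 7 did not pass, and the median log2 ratio was -0.40. Of all tested genes 21.3% were higher and 20.5% lower, so the count of higher genes on this list was near the share over all genes. *Angptl4*, a secreted inhibitor of lipoprotein lipase, was lower, with 286 ± 46.3 CPM in control and 39.5 ± 19.9 CPM in g*Spns1*-cKO livers, a log2 ratio of -2.86 (standard error 0.41, edgeR adjusted p = 0.00326). *Vldlr*, a lipoprotein receptor that works with the lipase, rose from 1.12 ± 0.501 to 9.38 ± 6.19 CPM (log2 ratio 3.08, edgeR adjusted p = 0.0130), but without control replicate 1 or 2 its adjusted p was 0.0606 or 0.0599, and without g*Spns1*-cKO replicate 2 its log2 ratio was 2.48. The family of *Fabp5* was split. *Fabp1*, the liver form, fell from 5063 ± 1272 to 835 ± 426 CPM (log2 ratio -2.60, standard error 0.38, edgeR adjusted p = 0.00145), and *Fabp2*, the intestinal form, from 114 ± 25.0 to 35.1 ± 6.43 CPM (-1.70, adjusted p = 0.000178). *Fabp7*, the brain form, rose from 1.83 ± 0.129 to 10.3 ± 0.236 CPM (2.48, standard error 0.17, edgeR adjusted p = 7.32e-06), and *Fabp4*, the form of adipocytes and macrophages, from 7.18 ± 0.419 to 11.3 ± 1.67 CPM (0.65, adjusted p = 0.00724). The remaining higher genes, named after their values were seen, were the lipase anchor *Gpihbp1* (0.50) and the fatty acid receptor *Cd36* (1.52).

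Of 41 tetraspanin and MS4A genes, the families of *Cd9* and *Ms4a7*, 34 were tested. Of these 16 were higher and 5 lower, beside 21.3% and 20.5% of all tested genes, and the median log2 ratio was 0.98. Besides *Cd63*, the tetraspanin *Tspan8* rose from 1.02 ± 0.0798 to 10.8 ± 1.14 CPM (log2 ratio 3.40, standard error 0.19, edgeR adjusted p = 2.26e-06). *Cd81*, the close relative and partner of CD9, had 248 ± 9.44 and 207 ± 35.5 CPM (log2 ratio -0.26, standard error 0.14, edgeR adjusted p = 0.164), with the opposite sign (0.18) when library size was the only scaling. The MS4A genes lie beside *Ms4a7* on chromosome 19 and resemble each other, so that reads may be shared among them. *Ms4a6d* rose from 1.06 ± 0.280 to 6.07 ± 0.986 CPM (log2 ratio 2.52, edgeR adjusted p = 6.21e-05). *Ms4a6c* (2.71, edgeR adjusted p = 0.00179), which overlaps *BE692007* on the opposite strand, *Ms4a4a* (2.90, adjusted p = 0.0102) and *Ms4a6b* (1.15, adjusted p = 0.0132) were higher too, all with a mean of 2.10 CPM or less. Without g*Spns1*-cKO replicate 2 the adjusted p of *Ms4a6b* was 0.0534, and without control replicate 2 the log2 ratios of *Ms4a6c* and *Ms4a4a* were 3.66 and 5.005. The lower tetraspanins, named after their values were seen, were *Cd82*, *Tspan12*, *Tspan14*, *Tspan31* and *Tspan33*, with log2 ratios between -1.65 and -0.42.

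**Figure D4:**
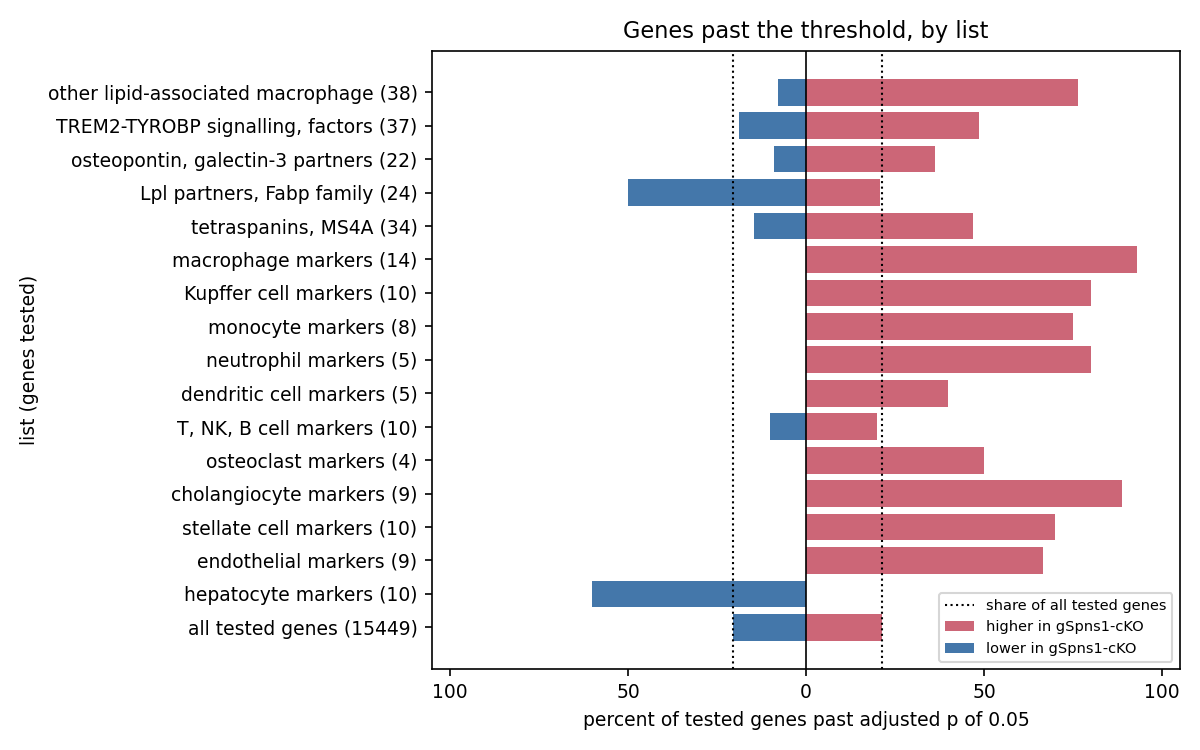
Percent of the tested genes of each list that passed the adjusted p of 0.05 (edgeR) as higher (right) or lower (left) in g*Spns1*-cKO livers, with the share of all 15449 tested genes as dotted lines at 21.3% and 20.5%; the 10 members are left out of every list. In the list of other lipid-associated macrophage genes 29 of 38 were higher, whereas among the partners of lipoprotein lipase and fatty acid-binding proteins 12 of 24 were lower.

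The genes most like *Gpnmb* were sought among the other 12916 tested genes that averaged 1 CPM or more, by the root mean square difference of log2 CPM over the 6 libraries after centring each gene on its mean. This is a description of a pattern dominated by the 2 genotypes. The nearest were *Epdr1* (difference 0.84), *Gipc2* (1.02), the estrogen sulfotransferase *Sult1e1* (1.04), *Cd63* (1.06) and *H2-M2* (1.07). *Epdr1* had 5, 7 and 2 counts in control and 473, 299 and 331 in g*Spns1*-cKO livers. *Cd63*, at 227 CPM in g*Spns1*-cKO livers, was the only one of these 5 that a list used here holds. Among the members, *Lpl* was nearest to *Gpnmb*, at rank 24, then *Trem2* (62), *Ms4a7* (63) and *Lgals3* (71), while *Cd68*, *Spp1*, *Tyrobp* and *Cd9* ranked between 306 and 647 and *Fabp5* at 10992. With a prior count of 2 in place of 0.5, *Cfap44* and *2310034O05Rik* took the places of *Cd63* and *H2-M2*.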

How the data were processed

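RNA-Seq of whole liver was analysed for 3 g*Spns1*-cKO and 3 control mice, grouped by the sample titles. The authors deposited 1 table with unnormalized counts per Ensembl gene and FPKM values for each library; the submitters' processing notes name fastp, HISAT2 2.0.5, featureCounts 1.5.0-p3 and mm10, and whether counting used strand is not given in the sources used here. The deposited table also holds a mean signal per group and the log2 fold changes and p-values of the authors' own comparison, none of which was used. The FPKM values served only as an alternative for levels per length.

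Counts were filtered with filterByExpr, scaled by TMM and compared with the quasi-likelihood test of edgeR 4.0.16 (robust, no covariate, R 4.3.3), with Benjamini-Hochberg adjustment over 15449 genes. Each standard error is the absolute log2 ratio over the square root of the F statistic of this test. For the members it is given as a description, like the ratio itself. CPM were obtained by dividing by scaled library sizes, and 3 counts are 0.0763 to 0.119 CPM (counting error only). TPM were computed from the counts and deposited lengths and are not TMM-scaled. Gene coordinates of all 10 members were the same in GENCODE M21 (GRCm38), where *Cd9* and *Spp1* share exon bases with genes of at most 8 counts. Chi-square per gene between libraries of a group was 40.1 to 121, so no library was a copy of another.

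The members and lists were chosen with earlier results of these data known. Genes named are the 10 members, *Spns1*, the 4 most changed of each list past the threshold without overlap and with at least 1 CPM, relatives of members, the 2 markers of highest CPM per cell type and the 5 genes most like *Gpnmb*; others are said to be named after their values were seen, and 1 gene is not reported here. Division by marker counts, its 2 other denominators and leaving out libraries from it, and the motifs, were added after the data were seen. Alternatives were library size only, RLE and upper-quartile scaling, 2 other filters, DESeq2 1.42.0, limma-voom (limma 3.58.1), a replicate block, a threshold of 0.01 and leaving out each library. The edgeR script was tested on simulated data. The p-values compare the genotypes against the spread between these mice. The labels do not give litters or batches, so a difference in these between the groups cannot be told apart from genotype.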

Additional observations from a re-analysis of the deposited data

How the results depend on the processing

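Library size as the only scaling raised the median log2 ratio over all tested genes to 0.46 and gave 7289 genes higher and 970 lower. It left 3 signalling genes, 1 osteopontin, galectin-3 or GPNMB partner and 2 tetraspanin or MS4A genes lower, and made 13 of those partners higher. It raised the log2 ratios of the members, to 7.28 for *Gpnmb*, 3.69 for *Trem2* and -0.26 for *Fabp5*, and turned the signs of *Cd81* (0.18), *Fn1* (0.062) and *Acp5* (0.22), none of them past the threshold. With it *Tfe3* (0.445), *Hcst*, *Mpeg1*, *Slc40a1* and *Stab1* passed as higher. At a threshold of 0.01, 3890 genes passed (1983 higher, 1907 lower), with 9 tetraspanin or MS4A genes higher. *Tfe3*, near 0, changed sign with RLE scaling and DESeq2 (-0.003), with a filter of 1 count in any library (-0.004) and with single libraries left out (-0.063 to 0.085 over these); *Zbtb46* did so without control replicate 3 (-0.091 to 0.308 over the 6 libraries left out). With each library left out in turn, the lower genes numbered 2 to 5 among the osteopontin, galectin-3 and GPNMB partners (4 without control replicate 1, 5 without g*Spns1*-cKO replicate 1) and 4 to 8 among the tetraspanins and MS4A genes (8 without g*Spns1*-cKO replicate 1). A filter of 10 counts in every library removed *Gpnmb* and *Ms4a7*, each with 2 control libraries below it. The call of *Plac8* was lost without g*Spns1*-cKO replicate 3 (adjusted p = 0.056), and that of *Cd4* with library size only (0.0898) and without control replicate 2 (0.0534) or g*Spns1*-cKO replicate 2 (0.0529). *Hcst* passed without control replicate 3 (0.0484), *Cd81* as lower without g*Spns1*-cKO replicate 1 (0.0196) and *Fn1* as lower without control replicate 1 (0.0188). With all libraries *Fn1* also passed as lower by DESeq2 (adjusted p = 0.0401). Library size only, upper-quartile scaling and DESeq2 each called 1 hepatocyte marker higher. By the deposited FPKM the members kept the same order of levels in both genotypes.

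Whether the replicate number in the titles pairs the mice is not given. Deviations of same-numbered libraries from their group means correlated at 0.037, 0.033 and -0.028, and those of differently numbered libraries at -0.065 to 0.032. With so few mice per genotype, these correlations cannot show whether the mice were paired. A fit with the replicate number as a replicate block called 6100 genes, against 6452 without it. Low counts limit *Gpnmb* and *Ms4a7* in control livers, where single libraries moved the fold changes most.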
